A study of Rattus norvegicus with 9 samples.

Results

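Hmgcs1, Idi1, Fdps, Fdft1, Sqle, Lss and Dhcr7 are 7 enzymes of the cholesterol synthesis pathway, and their expression was followed in the prefrontal cortex of 9 male Wistar rats. They were chosen by name, and all 7 were found among the 37209 genes of the count table. The Control group (rats A1, A2 and A6) was left with its mothers until weaning. The MS group (B3, B4 and B6) was separated from its mothers for 4 h each day from postnatal day 1 to 21. The EA group (C3, C10 and C16, MS+EA in the labels) was separated in the same way and then received electroacupuncture, an electrical current passed through needles at the points GV20 and GV29, every other day from postnatal day 61 to 81. Control and MS rats were anaesthetized as the EA rats were, without acupuncture, and all rats were sampled at an age of 14 weeks by the labels. No sham electroacupuncture group was analysed here, and the litter from which each rat came is not given, so that rats of a group may be siblings. The p-values rest on the spread between rats within groups. Where rats of a group are siblings, litter and group cannot be told apart, and the p-values can be too small. The labels name the tissue as frontal cortex, and every tested marker of neurons, astrocytes and oligodendrocytes was counted in each of the 9 rats.

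Cholesterol is built from acetyl-CoA by a long series of enzymes, first through mevalonate to isoprenoid units, then to squalene, and then from the first ring-shaped sterol to cholesterol. The brain makes its own cholesterol because lipoproteins of the blood do not cross the blood-brain barrier, and most of it lies in myelin. The transcription of these enzymes is driven by SREBP-2, the product of Srebf2, which is carried by Scap to be cut when sterols run low and is held back by the Insig proteins.

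The promoters of the members are shown because genes of this pathway are known to be regulated together by SREBP-2 and its partner factors, among them NF-Y, which binds the sequence CCAAT. RefSeq promoters (build GRCr8, 250 bases before to 50 after the listed start) were found for 5 of the 7 members, Hmgcs1, Idi1, Fdps, Lss and Dhcr7; Sqle and Fdft1 were not among them. In this build Dhcr7 lies on chromosome 1, Sqle on chromosome 7 and Fdft1 on chromosome 15. The CCAAT sequence, searched as CCAAT and ATTGG, was found in 4 of these 5, against 37.5% of 33465 promoters in the table. The 4 stretches of 120 bases that hold it are printed 5′ to 3′ on the strand of the gene, with the CCAAT or ATTGG letters in capitals. They lie at chr2:53382094-53382213 on the plus strand for Hmgcs1, chr17:66547525-66547644 on the minus strand for Idi1, chr2:176804847-176804966 on the minus strand for Fdps and chr20:12118231-12118350 on the minus strand for Lss.
Hmgcs1: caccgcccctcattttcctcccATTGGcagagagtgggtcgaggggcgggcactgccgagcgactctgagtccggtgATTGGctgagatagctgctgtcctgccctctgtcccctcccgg
Idi1: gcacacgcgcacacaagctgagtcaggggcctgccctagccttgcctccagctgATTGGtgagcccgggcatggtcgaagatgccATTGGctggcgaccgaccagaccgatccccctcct
Fdps: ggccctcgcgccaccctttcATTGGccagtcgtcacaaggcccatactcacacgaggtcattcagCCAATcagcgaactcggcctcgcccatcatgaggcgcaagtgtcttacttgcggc
Lss: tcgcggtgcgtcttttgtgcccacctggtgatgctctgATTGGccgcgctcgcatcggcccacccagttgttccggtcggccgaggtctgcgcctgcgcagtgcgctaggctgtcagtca

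Hmgcs1, Idi1 and Fdps hold 2 copies in these stretches and Lss 1. The GC box GGGCGG, searched on both strands and not overlapping CCAAT, was found in 4 of the 5 promoters (Hmgcs1, Fdps, Lss and Dhcr7), against 33.1% of all. The letters TCACNCCAC, searched for the sterol regulatory element, and the E-box CACGTG were found in 0 of the 5, against 1.12% and 6.42% of all promoters. Other forms of the sterol regulatory element were not searched. The 0 therefore does not show that these promoters lack such an element. The listed start of Hmgcs1 lies within the RefSeq span of the gene. These are matches of letters in the window and were not tested as binding sites.

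The libraries held 12479905 to 19007907 counts, and the 3 EA libraries were all smaller (up to 14913736) than those of the Control rats (16153292 or more) and MS rats (16106381 or more). The 3 smallest libraries were thus those of EA, and depth and group cannot be told apart. Expression is given as CPM, the share of a library's counts that fell on a gene after TMM scaling set the libraries on a common scale; levels of different genes cannot be compared in it, since it does not take gene length into account. Differences are log2 fold changes from edgeR's quasi-likelihood test over all 16837 genes that passed the filter on low counts, and all 7 members passed it. A gene was counted as called where its adjusted p (Benjamini-Hochberg) was under 0.05 and it also differed by more than 1.5-fold. Under this rule, 0 of the 7 members were called in any of the 3 comparisons, by edgeR, DESeq2 or limma-trend, nor was any in edgeR's test for any difference among the groups, in which their adjusted p lay between 0.314 and 0.717. In edgeR's tests 4 genes (0.0238% of those tested) were called between MS and Control, 3 (0.0178%) between EA and MS, and 230 (1.37%) between EA and Control, and 341 (2.03%) differed among the 3 groups at an adjusted p under 0.05. The pairwise counts were 70, 6 and 296 with DESeq2 and 3, 3 and 228 with limma-trend, in this order. The 3 comparisons share rats: Control enters 2 of them, as do MS and EA.

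**Figure D1:**
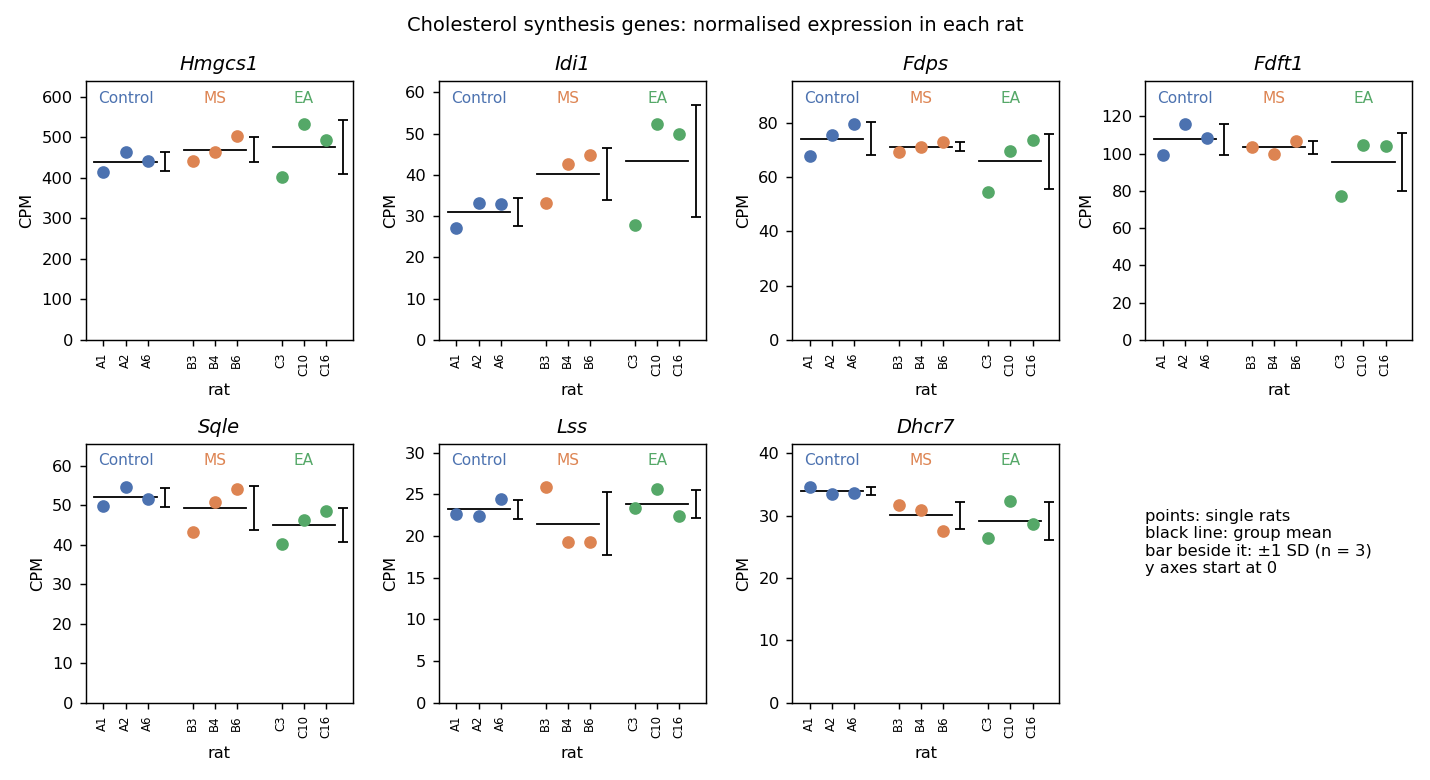
Normalised expression (CPM, vertical axis from 0) of the 7 genes in each of the 9 rats, with the mean of each group as a line and ±1 SD (n = 3) as a bar beside it. Relative to its level, Idi1 spans the widest range (1.92-fold, from 27.2 CPM in A1 to 52.3 CPM in C10), and the EA rat C3 is the lowest of 9 for Hmgcs1, Fdps, Fdft1, Sqle and Dhcr7.

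Hmgcs1, which makes HMG-CoA on the way to mevalonate, was read at 415, 462 and 441 CPM in the Control rats A1, A2 and A6. It was at 442, 462 and 503 CPM in MS (B3, B4 and B6 in this order), and at 401, 532 and 492 CPM in the EA rats C3, C10 and C16. The groups overlapped: both the lowest and the highest rat of the 9 belonged to the EA group. The group means were 439 ± 23.9 (SD, n = 3), 469 ± 31.1 and 475 ± 67.1 CPM. The log2 fold change was 0.09 for MS against Control (95% interval -0.11 to 0.30) and 0.11 for EA against Control (-0.09 to 0.32), so that a rise of up to about 1.25-fold lay within the second interval (edgeR adjusted p = 0.772 and 0.526). For EA against MS it was 0.02 (-0.19 to 0.23, edgeR adjusted p = 0.960).

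Idi1, isopentenyl-diphosphate isomerase, interconverts the isoprenoid units that are joined in the next steps. Its level was 27.2, 33.1 and 33.0 CPM in the Control rats, 33.1, 42.5 and 44.9 CPM in the MS rats and 27.8, 52.3 and 50.0 CPM in the EA rats. All MS rats were above the highest Control rat, the lowest of them by a margin that vanishes on rounding (33.12 CPM in B3 against 33.05 CPM in A2). C10 and C16 were the highest of all 9 rats, while C3 lay among the Control rats. The mean was 31.1 ± 3.36 CPM in Control, 40.2 ± 6.23 CPM in MS and 43.3 ± 13.5 CPM in EA (SD, n = 3). The log2 fold change was 0.37 for MS against Control (95% interval -0.06 to 0.80, edgeR adjusted p = 0.526) and 0.48 for EA against Control (0.05 to 0.91, unadjusted p = 0.0309, adjusted p = 0.172). It was 0.11 for EA against MS (-0.32 to 0.53, adjusted p = 0.861). This was the one member for which a choice of rats changed the call: without C3 the log2 fold change of EA against Control was 0.73 and the edgeR adjusted p was 0.0136, past both thresholds. Without C10 it was 0.32 (adjusted p = 0.43) and without C16 it was 0.37 (adjusted p = 0.388).

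Fdps, farnesyl diphosphate synthase, was read at 67.7, 75.3 and 79.4 CPM in Control, 69.3, 71.1 and 72.8 CPM in MS and 54.3, 69.6 and 73.4 CPM in EA rats. Fdft1, squalene synthase, was at 99.0, 116 and 108 CPM in Control, 103, 99.8 and 107 CPM in MS and 77.3, 104 and 104 CPM in EA rats. For both genes the groups overlapped and C3 stood below every other rat, whereas C10 and C16 lay within the range of the Control and MS rats. The mean of Fdps was 74.1 ± 5.96 CPM in Control, 71.1 ± 1.74 CPM in MS and 65.8 ± 10.1 CPM in EA (SD, n = 3). That of Fdft1 was 108 ± 8.41, 103 ± 3.63 and 95.3 ± 15.6 CPM in the same order. For EA against Control the log2 fold change was -0.17 for Fdps (95% interval -0.40 to 0.05) and -0.18 for Fdft1 (-0.41 to 0.05), with edgeR adjusted p = 0.351 and 0.348. Both were at -0.06 for MS against Control (intervals -0.28 to 0.16 and -0.29 to 0.17, edgeR adjusted p = 0.883 and 0.887). For EA against MS they were at -0.11 (-0.34 to 0.11) and -0.12 (-0.35 to 0.11), with edgeR adjusted p = 0.693 and 0.686. RefSeq names 5 pseudogene copies of Fdps and 1 of Idi1, 0 of them in the count table, and how reads with several locations were treated is not given, so that the values of both genes carry this uncertainty.

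Sqle, squalene epoxidase, catalyses the first oxygen-requiring step of the sterol part and was read at 49.8, 54.6 and 51.7 CPM in Control rats. It was at 43.2, 50.8 and 54.1 CPM in MS rats and at 40.2, 46.2 and 48.4 CPM in EA rats. All 3 EA rats were below all 3 Control rats, and MS rats spread over both ranges. The means were 52.0 ± 2.43, 49.3 ± 5.56 and 44.9 ± 4.27 CPM (SD, n = 3). The log2 fold change of EA against Control was -0.21 (95% interval -0.43 to 0.00), with an unadjusted p of 0.0536 and an edgeR adjusted p of 0.231. It was -0.08 for MS against Control (-0.29 to 0.14) and -0.14 for EA against MS (-0.35 to 0.08), with edgeR adjusted p = 0.831 and 0.609.

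Lss, lanosterol synthase, closes the rings of the first sterol. It was read at 22.6, 22.4 and 24.5 CPM in Control, 25.9, 19.3 and 19.2 CPM in MS and 23.4, 25.7 and 22.4 CPM in EA rats. The MS rats held both the highest and the lowest value, and the groups overlapped in every comparison. The means were 23.2 ± 1.13, 21.5 ± 3.82 and 23.8 ± 1.67 CPM. Log2 fold changes were -0.11 for MS against Control, 0.15 for EA against MS and 0.04 for EA against Control. Their intervals ran from -0.38 to 0.16, from -0.12 to 0.42 and from -0.23 to 0.31, and the edgeR adjusted p was 0.803, 0.659 and 0.888 in that order.

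Dhcr7, 7-dehydrocholesterol reductase, makes cholesterol in its last step. Its Control rats were close together at 34.6, 33.4 and 33.6 CPM, the MS rats were at 31.7, 30.9 and 27.5 CPM and the EA rats at 26.4, 32.4 and 28.6 CPM. Every MS and every EA rat was below every Control rat, while the MS and EA rats overlapped. The means were 33.9 ± 0.646, 30.1 ± 2.22 and 29.1 ± 3.07 CPM (SD, n = 3). The log2 fold change was -0.17 for MS against Control (95% interval -0.38 to 0.04, edgeR adjusted p = 0.545) and -0.22 for EA against Control (-0.43 to -0.01, unadjusted p = 0.0450, adjusted p = 0.211). For EA against MS it was -0.04 (-0.26 to 0.17, adjusted p = 0.891).

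**Figure D2:**
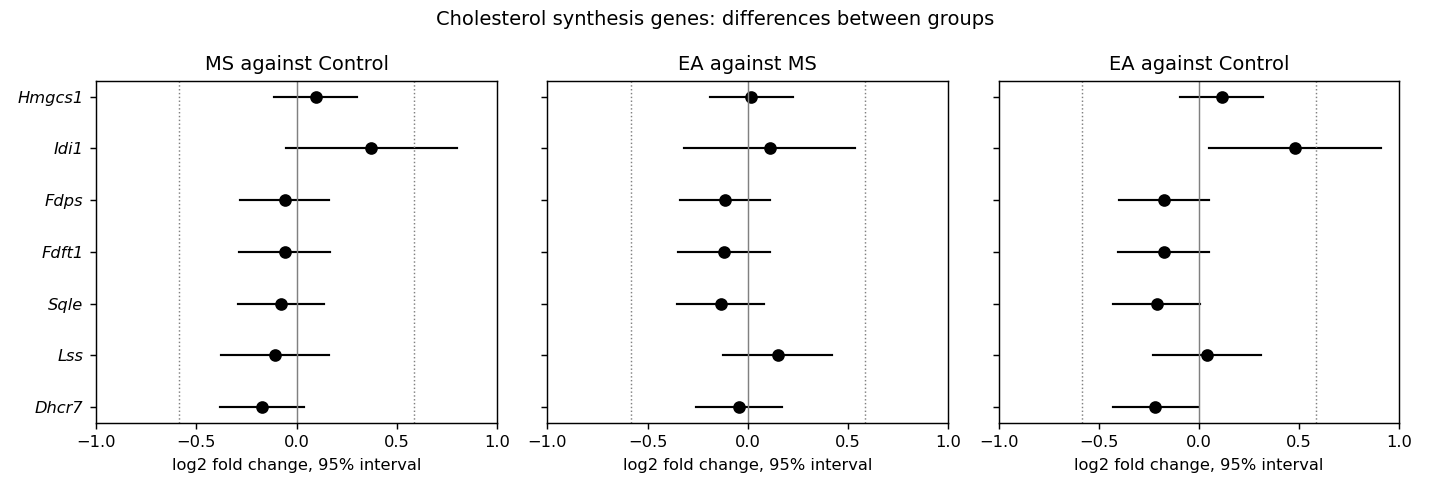
Log2 fold change (points, horizontal axis) of the 7 genes in the 3 comparisons with 95% intervals (lines) from edgeR, and dotted lines at the 1.5-fold threshold. Intervals that exclude 0 are seen for Idi1 (0.05 to 0.91) and Dhcr7 (-0.43 to -0.01) in EA against Control only, and neither passed adjustment over all genes.

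Counted over the 7 members, 0 were past an unadjusted p of 0.05 in MS against Control, where 10.6% of all tested genes were, and 0 in EA against MS, where 12.4% were. In EA against Control 1 member was higher at this p (Idi1), against 11.9% of all genes, and 1 was lower (Dhcr7), against 10.6%. The 2 of EA against Control became 0 without A1, 1 without A2, A6 or B4, and 3 without B3 or B6. The 0 of MS against Control became 2 without B3 and 1 without C3, and so did that of EA against MS. With groups that did not overlap, 1 member was higher (Idi1) and 1 lower (Dhcr7) in MS against Control, beside 10% and 7.53% of all genes. In EA against MS these counts were 0 and 0, beside 8.27% and 9.6%. In EA against Control they were 0 and 2 (Sqle and Dhcr7), beside 13% and 12.9%. The order of the group means was Control < MS < EA for Hmgcs1 and Idi1 and EA < MS < Control for Sqle, Fdft1, Fdps and Dhcr7, but no neighbouring pair of groups in these orders passed the adjusted threshold. The median log2 fold change of the members was -0.06 for MS against Control, -0.04 for EA against MS and -0.17 for EA against Control, whereas that of all tested genes was -0.00135, 5.9e-04 and 0.00553. Without C3, the median for EA against Control was -0.04, and the log2 fold changes were 0.23 for Hmgcs1, 0.73 for Idi1, -0.05 for Fdps, -0.04 for Fdft1, -0.13 for Sqle, 0.06 for Lss and -0.14 for Dhcr7.

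The EA rats had the largest coefficient of variation of the 3 groups for 5 of the 7 members. This coefficient was 31.3% for Idi1, 16.4% for Fdft1, 15.4% for Fdps and 14.1% for Hmgcs1 in EA, and 10.8%, 7.81%, 8.05% and 5.44% in Control. For Sqle and Lss it was largest in MS, at 11.3% and 17.8%. One EA rat, C3, stood apart, with Idi1 at 54.3%, Fdft1 at 74.1%, Fdps at 76.0%, Hmgcs1 at 78.3%, Sqle at 84.9%, Dhcr7 at 86.4% and Lss at 97.3% of the mean of C10 and C16. The median over all tested genes was 99.7%. C3 was the lowest of the 9 rats for 5 of the 7 members (71.4%), and for 7 of 14 further enzymes of the pathway, compared with 13.6% of all tested genes. The regulator Insig1 was at 62.5% in the same comparison. C3 had the highest summed level of 8 oligodendrocyte markers (Mbp, Mog and others), 4354 CPM against 1929 to 3356 CPM in the other 8 rats. It had the lowest sum of 7 neuron markers, 5205 CPM against 6066 to 6780 CPM. Among single neuron markers, C3 was the lowest rat for Snap25, Syt1, Tubb3 and Slc17a7. It was not the lowest for Rbfox3 (185 CPM, with C10 at 167), Gad1 (219 CPM, with B3 at 211) and Gad2 (109 CPM, with A6 at 101). The part of these cell markers in the low values of C3 was not tested, and in tissue RNA fewer cells of a type and less RNA per cell cannot be told apart.

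Over the groups, the 7 neuron markers summed to 6066 to 6215 CPM in Control, 6230 to 6780 CPM in MS and 5205 to 6498 CPM in EA rats. The 7 astrocyte markers summed to 4443 to 5218, 4880 to 5139 and 4146 to 5013 CPM in the same order, and the 8 oligodendrocyte markers to 2195 to 3356, 1929 to 3009 and 2117 to 4354 CPM. These lists overlapped between EA and Control. The 5 markers of oligodendrocyte precursors summed to 294 to 354, 281 to 323 and 254 to 413 CPM, and the 6 of microglia to 224 to 251, 213 to 240 and 185 to 242 CPM. The 6 endothelial and mural markers summed to 147 to 163 CPM in Control, 182 to 210 CPM in MS and 156 to 187 CPM in EA rats, and those of choroid plexus to no more than 12.1 CPM in any rat. Every MS rat was thus above every Control rat in the endothelial and mural sum. The same held in Idi1, there by a small margin (33.12 CPM in B3 against 33.05 CPM in A2). All 6 endothelial and mural markers had a higher log2 fold change in MS than in Control, beside 49.7% of all tested genes. Pecam1, Flt1, Pdgfrb and Rgs5 overlapped between MS and Control rats, while Cldn5 and Tek did not. In the neuron sum the same groups also did not overlap, but single markers went both ways: Snap25 was at 2122 to 2181 CPM in Control and 2368 to 2690 CPM in MS rats, Slc17a7 was lower in every MS rat than in every Control rat, and the other 5 overlapped. For EA against Control, 3 of the 7 neuron markers had a higher log2 fold change (Snap25 0.18, Gad1 0.12 and Gad2 0.26) and 4 a lower one (Syt1 -0.05, Rbfox3 -0.20, Tubb3 -0.32 and Slc17a7 -0.30), with a median of -0.05. Tubb3 and Slc17a7 had an edgeR adjusted p under 0.05 (0.0252 and 0.0207), short of 1.5-fold. The part of cell type shares in the levels of the members was not tested.

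In log2 CPM, Hmgcs1 and Idi1 varied together over the 9 rats. Pearson's r was 0.94 (exact permutation p = 3.5e-04, adjusted p = 0.00729 over the 21 pairs of members) and Spearman's rho was 0.917 (exact permutation p = 0.00131, adjusted p = 0.0275). Pearson's r was 0.91 without C3 and C10, the rats farthest from the median of Hmgcs1, 0.93 without C3 alone, and 0.95 for the deviations of the rats from their group means. Fdft1 and Fdps also varied together, with r of 0.94 (exact permutation p = 0.00764, adjusted p = 0.0803) and rho of 0.867 (exact permutation p = 0.00451, adjusted p = 0.0473), and r was 0.76 without C3 and A2, 0.70 without C3 and 0.92 for the deviations from group means. The adjusted p of this pair thus lay on either side of 0.05, depending on the coefficient. The deviations from group means keep the distance of C3 from the other EA rats. Their r was also high for Hmgcs1 and Fdft1 (0.92, against 0.21 for the levels without C3). For Fdps and Idi1 it was 0.92, against 0.0043 for the levels without C3. Of the 21 pairs, 14 had r above 0, 1 passed adjustment by Pearson's r and 2 by Spearman's rho. Within a group of 3 rats no correlation could be given, and the points share the scaling of their library.

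**Figure D3:**
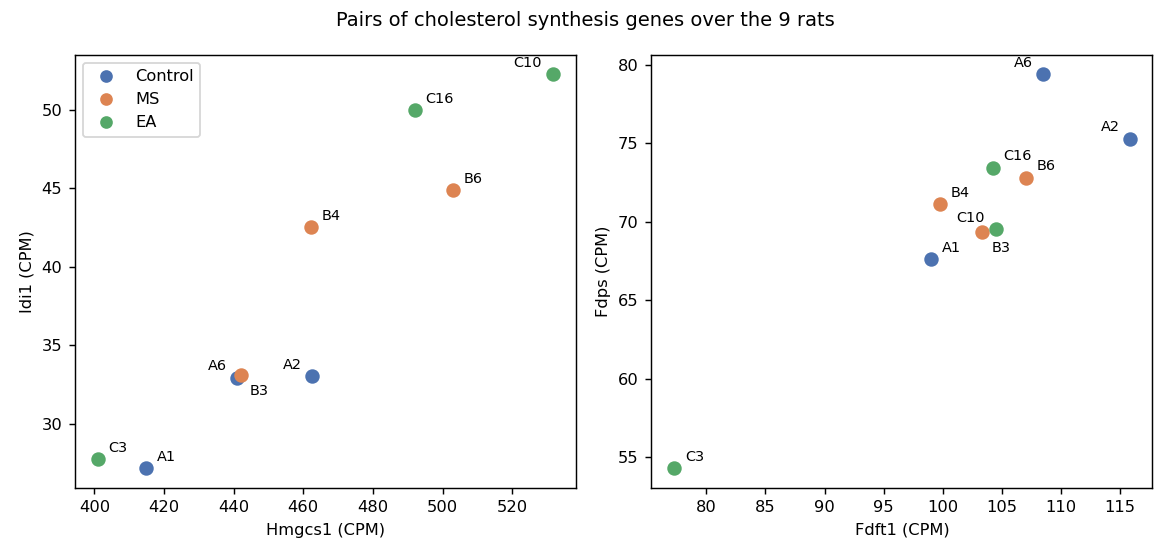
Expression (CPM) of Idi1 against Hmgcs1 (left) and of Fdps against Fdft1 (right) in the 9 rats, coloured by group. Hmgcs1 and Idi1 rise together from C3 and A1 to C10 (r = 0.94), and C3 lies apart from the other 8 rats for Fdft1 and Fdps (r = 0.94 with it, 0.70 without it). Each r is of log2 CPM.

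As a pattern over the 9 rats, the mean of the members' standardized log2 CPM was lowest in C3 (-1.53) and highest in C10 (0.62). Fdft1 and Fdps followed it most closely (r = 0.94 and 0.91) and Lss hardly at all (r = 0.07). Each member is itself part of this mean, which raises its r, so that these values cannot be set beside those of other genes. The genes outside the pathway lists most like this mean were Kbtbd12 (r = 0.95), LOC687565 (0.95), Cdkn2c (0.95), Ube4b (0.95) and Pdk3 (0.94), and 0.143% of the tested genes had an r of 0.9 or more. Genes of the pathway lists close to it included Insig1 (0.92), Hsd17b7 (0.77) and Acat2 (0.75).

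The other 14 enzymes of the pathway were set beside the members in the same fit. Against Control, 9 of the 14 had a higher log2 fold change in MS (median 0.04), beside 49.7% of all tested genes, and in EA against MS 11 of the 14 had a lower one (median -0.13), beside 49.9%. Between EA and Control, 12 of the 14 had a lower and 2 a higher log2 fold change, with a median of -0.12, beside 49.1% of all tested genes lower, and 0 passed the adjusted threshold. C3, the lowest of the 9 rats for 7 of these 14 enzymes, enters both comparisons of EA. The mevalonate enzyme Mvk gave -0.35 for EA against Control (edgeR adjusted p = 0.187) and Mvd -0.25 for EA against MS (adjusted p = 0.397). Nsdhl, a sterol dehydrogenase at 0.763 to 2.13 CPM, gave -0.89 for EA against MS (adjusted p = 0.322). Cyp51, the lanosterol demethylase, was close to level, at -0.02 for EA against Control (95% interval -0.20 to 0.16), and its sign turned with the scaling (0.0074 with total counts).

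**Figure D4:**
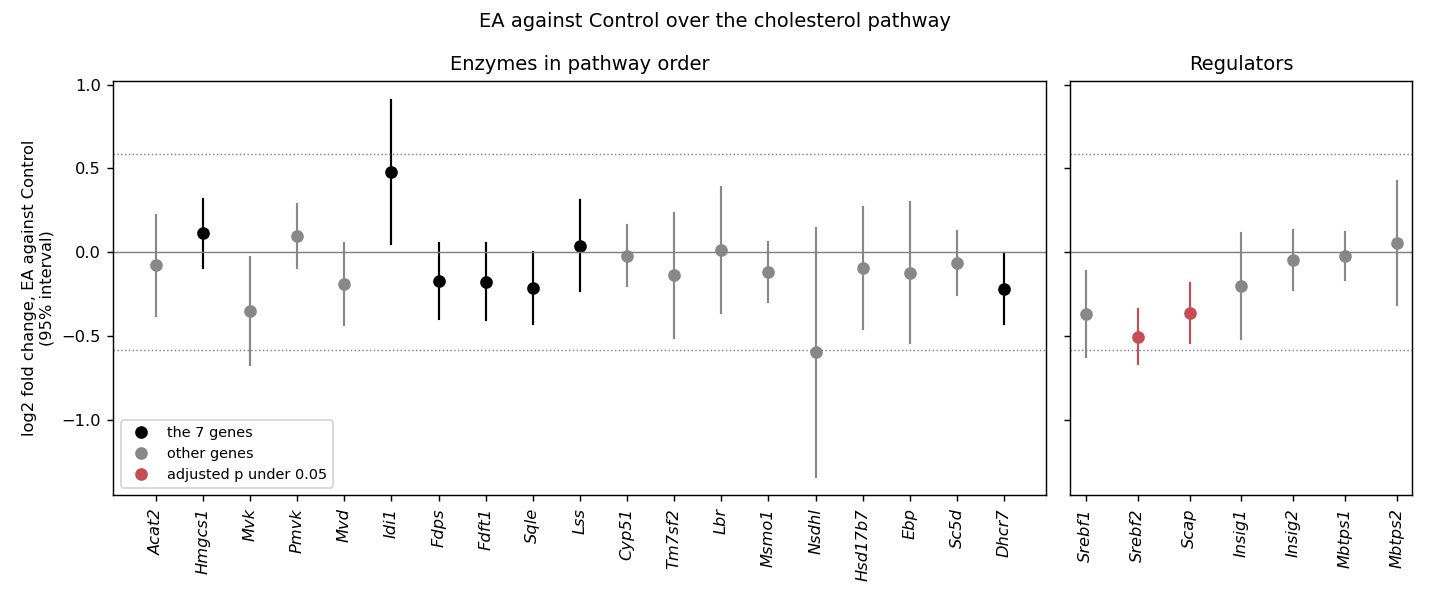
Log2 fold change of EA against Control with 95% intervals for enzymes in pathway order (left, the 7 members in black) and for 7 SREBP regulators (right). Srebf2 and Scap, in red, have an adjusted p under 0.05, and no gene shown passed the 1.5-fold threshold, drawn as dotted lines, together with it.

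Of the 7 regulators of the SREBP pathway, 2 had an adjusted p under 0.05 between EA and Control, both lower in EA (median of the 7 regulators -0.20). Srebf2, which encodes SREBP-2, was at 459, 412 and 449 CPM in Control, 409, 402 and 368 CPM in MS and 284, 332 and 315 CPM in EA rats. All EA rats were below all MS rats, and all MS rats below all Control rats. The log2 fold change of EA against Control was -0.50 (95% interval -0.67 to -0.34, edgeR adjusted p = 0.00711), or 1.42-fold lower and so short of the 1.5-fold threshold. This adjusted p stayed under 0.05 in all 17 alternatives. For EA against MS the log2 fold change of Srebf2 was -0.34 (adjusted p = 0.184), which passed the adjusted threshold in 2 of 17 alternatives (with DESeq2, adjusted p = 0.00783, and with a filter of at least 1 count), and for MS against Control it was -0.16 (adjusted p = 0.470). Scap, the escort of the SREBPs, was at 264, 209 and 222 CPM in Control, 215, 207 and 203 CPM in MS and 190, 173 and 177 CPM in EA, all below the lowest of the MS and Control rats. Its log2 fold change of EA against Control was -0.36 (adjusted p = 0.0303), which rose above 0.05 in 5 of 17 alternatives, without A1, A6, C10 or C16 and with only the 6 rats compared, to at most 0.118 (without A1). In the same comparison 4 of the 7 neuron markers were lower and 3 higher, with a median of -0.05. Of these markers, 2 (Tubb3 and Slc17a7) had an edgeR adjusted p under 0.05, both lower in EA and short of 1.5-fold. The part of cell type shares in the values of Srebf2 and Scap was not tested. The values of the remaining named regulators in EA against Control were -0.37 for Srebf1 (adjusted p = 0.0878, under 0.05 with DESeq2 and with the filter of at least 1 count), -0.20 for Insig1 (0.447) and -0.04 for Insig2, whose log2 fold change was -0.18 for EA against MS (0.382). By adjusted p alone, without the fold threshold, 3.21% of all tested genes were higher and 2.19% lower in EA than in Control, and of the 7 regulators 0 were higher and 2 lower.

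**Figure D5:**
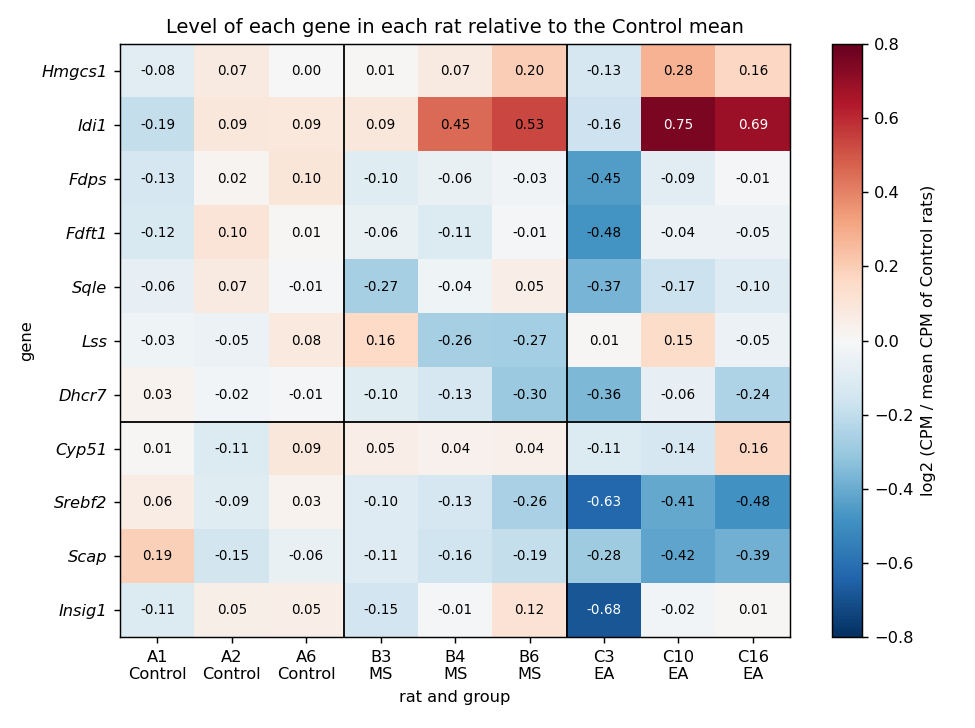
Level of the 7 members and of 4 further pathway genes in each rat (columns, by group), as log2 of its CPM over the mean CPM of the Control rats, with red for higher and blue for lower. Idi1 is at 0.75 in C10 and 0.69 in C16 but at -0.16 in C3, and Srebf2 lies between -0.63 and -0.41 in the 3 EA rats.

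Of the genes for uptake, transport and turnover of cholesterol, 25 of 26 were tested. Cyp46a1, which turns cholesterol into 24-hydroxycholesterol in neurons, was lower in EA than in Control with a log2 fold change of -0.40 (edgeR adjusted p = 0.0283). It was at 182, 180 and 154 CPM in EA rats and 259, 205 and 219 CPM in Control rats. In MS rats it was at 202, 208 and 211 CPM. Cyp7b1, an oxysterol hydroxylase, was higher in EA than in Control by 0.42 (edgeR adjusted p = 0.0300). It was at 44.5, 43.9 and 41.4 CPM in EA and 32.3, 30.2 and 34.4 CPM in Control. The MS rats, at 36.9, 42.9 and 46.4 CPM, were also above every Control rat. For MS against Control the log2 fold change of Cyp7b1 was 0.38 (edgeR adjusted p = 0.168). In EA against Control the adjusted p of Cyp46a1 rose above 0.05 without A1, A6, C10 or C16 (highest edgeR adjusted p 0.117, without A1). That of Cyp7b1 did so without any one of the Control and EA rats (highest 0.111, without A1). These were the 2 genes of the list with an adjusted p under 0.05 in any comparison. In EA against Control 1 of the 25 was thus higher and 1 lower, beside 3.21% and 2.19% of all tested genes. The median of the list in EA against Control was -0.08. Apoe, the main apolipoprotein of the brain, gave -0.35 for EA against Control (adjusted p = 0.136, under 0.05 with DESeq2 and with a filter of at least 1 count), Npc2 -0.36 for EA against MS (0.342) and Lrp8 0.22 for MS against Control (0.403).

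Among the genes for fatty acid synthesis, 9 of 10 were tested. Fasn, fatty acid synthase, was at 389, 382 and 401 CPM in EA rats. It was at 445, 441 and 432 CPM in MS rats and 499, 447 and 497 CPM in Control rats. Fasn was lower in EA than in Control by a log2 fold change of -0.30 (edgeR adjusted p = 0.0219). Fads2, a fatty acid desaturase, gave -0.48 (adjusted p = 0.0521) and Acly, which supplies acetyl-CoA, -0.18 (0.129), and Me1 gave 0.17 for MS against Control (0.451). The adjusted p of Fads2 fell below 0.05 in 5 of 17 alternatives, to 0.0113 at the lowest: with DESeq2, limma-trend, bias-adjusted deviances and a filter of at least 1 count, and without C16, where the log2 fold change was -0.63 and past the 1.5-fold threshold too. Pggt1b, a subunit of geranylgeranyl transferase, belongs to the branch of the pathway that leads to isoprenoids other than sterols. It was at 74.2, 77.9 and 68.4 CPM in EA rats and 63.9, 60.4 and 62.0 CPM in MS rats. In Control rats it was at 43.5, 51.7 and 59.3 CPM. Pggt1b was higher in EA than in Control by 0.51 (edgeR adjusted p = 0.0174). Nus1 gave -0.34 (adjusted p = 0.146). The adjusted p of Fasn rose above 0.05 without A1, A6 or C10 (to at most 0.102) and that of Pggt1b without A1 or C10 (to at most 0.0727). Without A6 the log2 fold change of Pggt1b was 0.63, past both thresholds. The median in EA against Control was -0.18 over the tested genes for fatty acid synthesis and -0.02 over the 8 of the isoprenoid branch. In all 5 pathway lists and all 3 comparisons, 0 genes passed both thresholds in the edgeR fit of the 9 rats.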

How the data were processed

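Total RNA of the frontal cortex of 9 rats was depleted of rRNA and sequenced on a HiSeq X instrument. Per the labels and the methods of the study, reads were filtered with FastQC and mapped to Rnor_6.0 with HISAT2 2.0.4. The authors deposited raw counts per gene for 37209 genes, without normalization; the counting program, strand setting and treatment of reads with several locations are not given in the sources used here. Totals ranged from 12479905 to 19007907 counts per rat. Groups were taken from the labels.

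Counts were scaled by TMM, filtered by filterByExpr (minimum count 10) and tested with edgeR 4.0.16 in R 4.3.3, by the quasi-likelihood F test with 1 mean per group over 9 rats and Benjamini-Hochberg adjustment over 16837 genes. The biological coefficient of variation was 12.7%. CPM was computed from the scaled library sizes. Log2 CPM took a prior count of 2 for the correlations with the mean of the members, and none for the pairs of members. Calls required both an adjusted p below 0.05 and a change of more than 1.5-fold. Named genes were every member, up to 6 genes of each pathway list called or at an unadjusted p under 0.05 in any comparison, further pathway genes fixed by name (among them Cyp51, Srebf2 and Insig1), and the 5 most similar genes inside and the 5 outside the lists. Some genes under this rule are not reported here. Members, lists and this rule were chosen with earlier results of these data known. Alternatives were DESeq2 1.42.0, limma 3.58.1 (limma-trend), other scaling and filters, bias-adjusted deviances, the 6 rats compared, no fold threshold and omission of each rat. The procedure was run on simulated data with larger changes than those of the members and the same spread for all genes. That run does not measure how well changes as small as those of the members are found. Correlations and figures were computed with Python 3.11.15, scipy 1.17.1 and matplotlib 3.10.9. An exact permutation of 3 against 3 rats cannot give a p below 0.1, so single values were not tested in this way. Promoters came from RefSeq (GRCr8), and no coordinates of Rnor_6.0 were used.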

Additional observations from a re-analysis of the deposited data

How the results depend on the processing

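No paired analysis was possible because the groups hold different rats and the labels share no more than 1 replicate number between any 2 groups. Of 17 alternatives for each of the 21 member comparisons, 344 values in all kept direction and side of the adjusted threshold. Idi1 in EA against Control passed it in 2, without C3 and with a filter of at least 1 count (log2 fold change 0.48, edgeR adjusted p = 0.0344, short of 1.5-fold). The cause of the other changes was not tested.

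The number of genes called in MS against Control was 207 with a filter of at least 1 count, 70 with DESeq2 and 11 in a fit of the 6 rats compared. In EA against MS it was 72 with that filter, 6 with DESeq2, 1 with bias-adjusted deviances, 1 with the 6 rats and 0 with at least 10 counts in every rat. In EA against Control it was 469 with that filter and 910 without a fold threshold. Leaving out each rat in turn gave 2 to 22 genes in MS against Control (highest without B3), 1 to 4 in EA against MS and 71 to 304 in EA against Control (lowest without A1, and 121 without C10). Without a fold threshold, 2 SREBP regulators, 2 genes of cholesterol uptake, transport and turnover, 1 of fatty acid synthesis and 1 of the isoprenoid branch were called in EA against Control, and without 1 rat 0 to 1 of each of the last 2 lists (1 without C16 and 1 without A6).

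Members called in EA against Control, and in the test of any difference, numbered 0 to 1 when a rat was left out, 1 without C3. Members at an unadjusted p under 0.05 numbered 1 in MS against Control with a filter of at least 1 count and with the 6 rats, and 1 in EA against Control with total counts, with at least 10 counts in every rat, with DESeq2 and with limma-trend. In EA against Control they numbered 3 in edgeR when the size factors of DESeq2 replaced TMM. Leaving out a rat gave 0 to 2 in MS against Control, 0 to 2 in EA against MS and 0 to 3 in EA against Control, and a median member log2 fold change of -0.22 to -0.040 in EA against Control.

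Signs that turned belonged to small differences. Leaving out a rat gave -0.15 to 0.0098 for Sqle in MS against Control. In EA against MS it gave -0.072 to 0.13 for Hmgcs1, -0.052 to 0.36 for Idi1, -0.19 to 0.020 for Fdft1, -0.20 to 0.015 for Fdps and -0.13 to 0.030 for Dhcr7. In EA against Control it gave -0.019 to 0.086 for Lss and -0.12 to 0.035 for Cyp51, for which total counts gave 0.0074 (log2 fold changes throughout). With 3 rats a group, small differences can be missed. The 95% intervals given are not adjusted over all genes, so they do not set the smallest difference that could be called. Those of Idi1 and Dhcr7 in EA against Control excluded 0, with edgeR adjusted p = 0.172 and 0.211.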
